A study of Mus musculus with 4 samples.

Results

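Expression of 10 genes of MHC class II antigen presentation was followed through single liver cells of male mouse offspring. The genes were listed by name as parts of the pathway, and earlier results of these data were known when they were listed. They are H2-Aa, H2-Ab1, H2-Eb1, Cd74, H2-DMa, H2-DMb1, H2-DMb2, H2-Oa, H2-Ob and Ciita, 10 of the 32285 genes in each count table, and all 10 had counts. Livers came from adult offspring at 8 weeks and from fetuses at embryonic day E18.5, and the mothers either had hyperglycemia in pregnancy (IHG, intrauterine hyperglycemia) or were controls (Ctrl). The 4 groups were adult IHG, adult Ctrl, fetal IHG and fetal Ctrl offspring, with 1 library each. The strain, and the way hyperglycemia was brought about, are not given in the labels. Per the labels' protocols, each library pooled material from 3 adults or from the offspring of 3 pregnant mice, the adults were perfused through the portal vein, and all livers went through enzyme digestion, a low-speed spin and red cell lysis. With 1 pooled library per group there is no replicate and no test: intervals below are 95% intervals from counting error alone, and library, pool and group cannot be told apart. The same holds for age, since adult and fetal livers differ in library and in perfusion.

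MHC class II molecules present peptides from the endocytic pathway to CD4+ T cells. H2-Aa and H2-Ab1 encode the alpha and beta chains of the I-A molecule, and H2-Eb1 the beta chain of I-E. Cd74, the invariant chain, occupies the groove until the compartment where the H2-M editor (H2-DMa with H2-DMb1 or H2-DMb2) exchanges peptides, and H2-O (H2-Oa with H2-Ob) inhibits that editor. Ciita is the transactivator that class II promoters depend on, recruited by the RFX, CREB and NF-Y factors bound there, and B cells, dendritic cells and activated macrophages are the cells best known for using it. B cells are known to reach high surface class II late in their development, and the fetal liver is a site of B lymphopoiesis.

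Of the members, 8 lie in the class II region of chromosome 17 (GRCm38/mm10, GENCODE M21). From low to high coordinate these are H2-Oa (chr17:34092340-34095234, plus strand), H2-DMa (chr17:34119541-34139101, plus), H2-DMb2 (chr17:34143307-34151555, plus), H2-DMb1 (chr17:34153072-34160230, plus), H2-Ob (chr17:34238903-34254414, plus), H2-Ab1 (chr17:34257689-34269419, plus), H2-Aa (chr17:34282744-34287823, minus) and H2-Eb1 (chr17:34305867-34316674, plus). Ciita lies elsewhere (chr16:10480059-10528418, plus). Class II promoters are known for a conserved module in which a site bound by RFX precedes one bound by NF-Y at a near-constant distance. RefSeq promoter windows of 300 bases (250 before to 50 after the gene start, build GRCm38.p6) were matched for 7 of the 10 members, and the 3 without one were H2-Ab1, Cd74 and Ciita. The letters searched were GATTGG, which holds the reverse complement of the CCAAT core that NF-Y binds, and GNAAC before it, a part of the RFX-bound box. Both were chosen after these sequences had been seen, were read on either strand, and do not overlap. The stretches that hold the module are shown because 5 genes of 3 different roles share it, and H2-DMb2 stands beside its near-copy H2-DMb1. Capitals mark GATTGG and, where present, GNAAC, and each sequence is read 5′ to 3′ on the gene's own strand. The RefSeq gene start that the window was built on lies downstream of GATTGG. It can differ from the GENCODE start given above. The H2-DMb1 and H2-DMb2 stretches lie inside the GENCODE spans of these genes, and the H2-Oa stretch reaches its GENCODE start.
H2-Aa (chr17:34287863-34287917, minus strand): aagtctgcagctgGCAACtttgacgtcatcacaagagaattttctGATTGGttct
H2-Eb1 (chr17:34305762-34305816, plus strand): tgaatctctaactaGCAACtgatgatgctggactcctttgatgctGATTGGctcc
H2-DMb1 (chr17:34153084-34153138, plus strand): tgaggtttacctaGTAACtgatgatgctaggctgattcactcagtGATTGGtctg
H2-DMb2 (chr17:34145113-34145167, plus strand): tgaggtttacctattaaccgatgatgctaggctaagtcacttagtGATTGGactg
H2-Oa (chr17:34092290-34092344, plus strand): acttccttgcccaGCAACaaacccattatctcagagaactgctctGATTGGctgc
H2-Ob (chr17:34238802-34238856, plus strand): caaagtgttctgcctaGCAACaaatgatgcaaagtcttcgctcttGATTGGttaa

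All 7 matched members held GATTGG on their own strand in at least 1 window, against 16.1% of 32851 RefSeq promoter windows on either strand. In H2-Aa, H2-Eb1, H2-DMb1, H2-DMb2, H2-Oa and H2-Ob the match began 49, 60, 62, 91, 44 and 58 bases before the RefSeq gene start. GNAAC followed by GATTGG, with starts 15 to 45 bases apart, was found in 5 of the 7 and in 1.69% of all windows, and GNAAC alone in 84.8%. The spacing was 32 bases in H2-Aa, H2-DMb1 and H2-Oa, 31 in H2-Eb1 and 29 in H2-Ob. H2-DMb2 had no GNAAC within that range. H2-DMa had 2 windows, the second with GATTGG 199 bases before its RefSeq start and no GNAAC in range. H2-Eb1 also held GATTGG on the opposite strand. The matches describe letters in these windows and were not tested for binding.

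The libraries held 6851 (adult IHG), 5245 (adult Ctrl), 8739 (fetal IHG) and 8500 (fetal Ctrl) barcodes, with median counts of 2235, 2558, 9116 and 6645 unique molecular identifiers (UMIs, one per captured transcript) per barcode. After filters 6500, 4951, 7925 and 7594 cells stayed. Pairs of libraries shared 8 to 26 barcodes. Haemoglobin genes took 20.4% of UMIs in fetal IHG and 35.4% in fetal Ctrl, so the fetal libraries also differed in their erythroid RNA. Cells were clustered without the 10 members, and clusters were named "X-like" from markers of 20 cell classes. Levels below are CPM, a gene's UMIs per 1000000 UMIs of the class. They are 3′ tag counts, so they do not scale with transcript length. Hepatocytes are the liver's defining type. Cells named hepatocyte-like were few, with 22 in adult Ctrl, 103 in fetal IHG, 96 in fetal Ctrl, and too few in adult IHG to give a level. The adult ones scored nearly as high for cholangiocyte markers (2.99) as for hepatocyte markers (3.32). Spp1, a cholangiocyte marker of the lists, and Krt18 and Krt8 were among their leading genes.

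Adult liver held far more class II RNA per UMI than fetal liver. The chains H2-Aa, H2-Ab1 and H2-Eb1 together made up 6616 CPM of the adult IHG library and 5583 CPM of adult Ctrl, against 67.3 CPM in fetal IHG and 51.7 CPM in fetal Ctrl. Cd74 had 8837 CPM in adult IHG and 6072 CPM in adult Ctrl, and 72.8 and 69.6 CPM in fetal IHG and fetal Ctrl. Ciita was near the limit of detection in fetuses, with 20 UMIs in fetal IHG and 26 in fetal Ctrl, against 367 in adult IHG and 268 in adult Ctrl.

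The cells behind these totals differed between the ages. In adults, B lineage-like cells gave 80.8% of chain UMIs in IHG and 58.5% in Ctrl (52.8% and 37.1% of cells), and conventional dendritic-like cells 14.3% and 31.9% (1.89% and 3.76% of cells). In fetuses most chain UMIs came from 1 small cluster, number 32, of 66 IHG and 49 Ctrl cells: 69.2% in IHG and 51.2% in Ctrl, from 0.833% and 0.645% of cells. Fetal B lineage-like cells, 12.6% of IHG and 29.4% of Ctrl cells, gave 9.85% and 38.2% of chain UMIs and 29.1% and 59.4% of Cd74 UMIs. In the erythroid-like class, which is not known to use class II, 9.46% of IHG and 5.02% of Ctrl chain UMIs were counted.

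**Figure D1:**
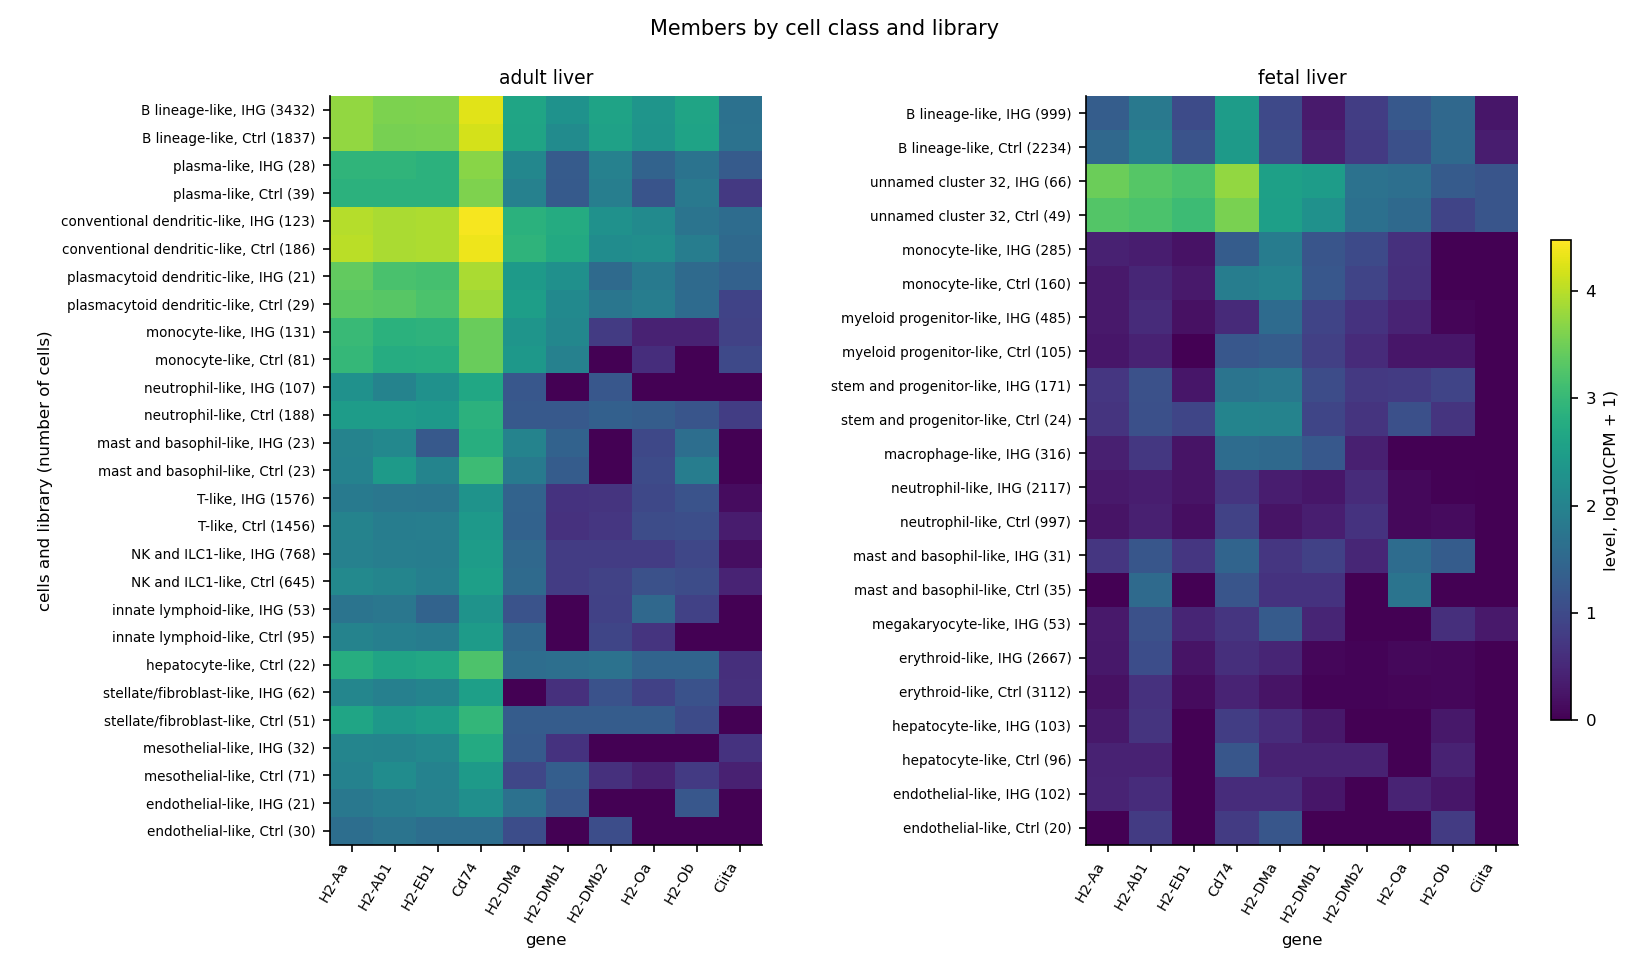
Heat map of the 10 members (columns) by cell class and library (rows, with the number of cells), adult liver left and fetal liver right. Colour is log10(CPM + 1). Adult B lineage-like and dendritic-like rows are bright for the chains and Cd74, and in fetal liver only cluster 32 comes near them.

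Along the fetal B lineage the members did not appear together. Stages were read from clusters by marker genes: pro-B-like (301 IHG and 368 Ctrl cells), cycling pre-B-like (245 and 727), small pre-B-like (4 and 347), immature or mature B-like (75 and 99) and cells with no stage (374 and 693). The small pre-B-like cluster was almost entirely from the Ctrl library and may be that library rather than a stage, so its IHG value is not given. Cluster 15 of the cycling stage also came mostly from Ctrl (36 IHG and 346 Ctrl cells), so the stage's IHG and Ctrl values mix clusters unequally. Its chains had 141 and 165 CPM, against 49.2 and 52.8 CPM in cluster 17 and 69.7 and 119 CPM in cluster 18 of that stage.

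In pro-B-like cells the H2-O genes and H2-Ab1 were already present while H2-Aa, H2-Eb1 and Ciita were nearly absent. H2-Oa had 43.9 CPM in IHG and 51.2 CPM in Ctrl, and H2-Ob had 50.03 and 66.9 CPM. H2-Ab1 had 50.9 CPM (58 UMIs) in IHG and 34.5 CPM (35 UMIs) in Ctrl. H2-Aa had 2 UMIs in IHG and 3 in Ctrl, H2-Eb1 had 0 and 2, and Ciita had 0 in both, which allows up to 2.63 CPM in IHG and 2.95 CPM in Ctrl. Cd74 stood at 36.9 CPM in IHG and 35.4 CPM in Ctrl.

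In cycling pre-B-like cells the H2-O genes were lower than in pro-B-like cells and the chains were not. H2-Oa had 4.70 CPM in IHG and 3.56 CPM in Ctrl, and H2-Ob 19.9 and 19.7 CPM. H2-Ab1 had 51.2 and 75.8 CPM and H2-Aa 7.19 and 19.99 CPM. Cd74 had 22.7 CPM in IHG and 79.0 CPM in Ctrl, below the chains summed at 61.4 and 101 CPM. That Cd74 level was below the pro-B-like one in IHG and above it in Ctrl. Small pre-B-like cells of the Ctrl library held 484 CPM of Cd74, 74.99 CPM of H2-Ab1 and 35.6 CPM of H2-Aa, so there Cd74 was ahead of the chains.

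Immature or mature B-like cells had the fetal lineage's highest levels of Cd74, the chains and H2-DMb2. Cd74 had 5774 CPM (counting interval 5501 to 6057) in IHG and 5995 CPM (5682 to 6320) in Ctrl. H2-Aa had 285 and 257 CPM, H2-Ab1 275 and 322 CPM, and H2-Eb1 175 and 218 CPM. The intervals of IHG and Ctrl overlap for each of these 4 genes. H2-DMa had 79.1 and 65.3 CPM, H2-DMb2 99.7 and 91.4 CPM, H2-DMb1 10.3 and 26.1 CPM, H2-Oa 68.8 and 52.2 CPM, and H2-Ob 72.2 and 65.3 CPM. Ciita was at 13.8 CPM in IHG and 13.1 CPM in Ctrl, from 4 and 3 UMIs.

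Within that stage Cd74 was in nearly every cell and the chains were not. A Cd74 UMI was found in 94.7% of IHG and 89.9% of Ctrl cells at median depths of 3108 and 2251 UMIs, and in 90.7% and 89.5% after every cell was thinned to 1000 UMIs. H2-Aa was found in 22.7% and 18.2% (14.7% and 13.7% thinned). Erythroid-like cells were taken as a rough gauge of free RNA, although their H2-Ab1 counts were concentrated in 1 cluster (below). In them Cd74 was in 4.16% of IHG and 2.22% of Ctrl cells and H2-Aa in 1.65% and 0.835%. Their median depths were 17476 and 13009 UMIs, and thinned shares there were at most 0.303%. Thinning cut these deeper cells more, so their thinned shares may understate free RNA in shallower cells. No chain UMI at all was seen in 65.3% of IHG and 71.7% of Ctrl cells of the stage. At the other end, 8 of 75 IHG cells (10.7%, exact binomial interval 4.72% to 19.9%) and 7 of 99 Ctrl cells (7.07%, 2.89% to 14.03%) had 10 or more chain UMIs. Those cells held 76.2% and 63.9% of the stage's chain UMIs and 25.7% and 24.2% of its Cd74 UMIs. The limit of 10 cuts a range and does not define a cell type: 6 IHG and 7 Ctrl cells had 3 to 9 chain UMIs.

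**Figure D2:**
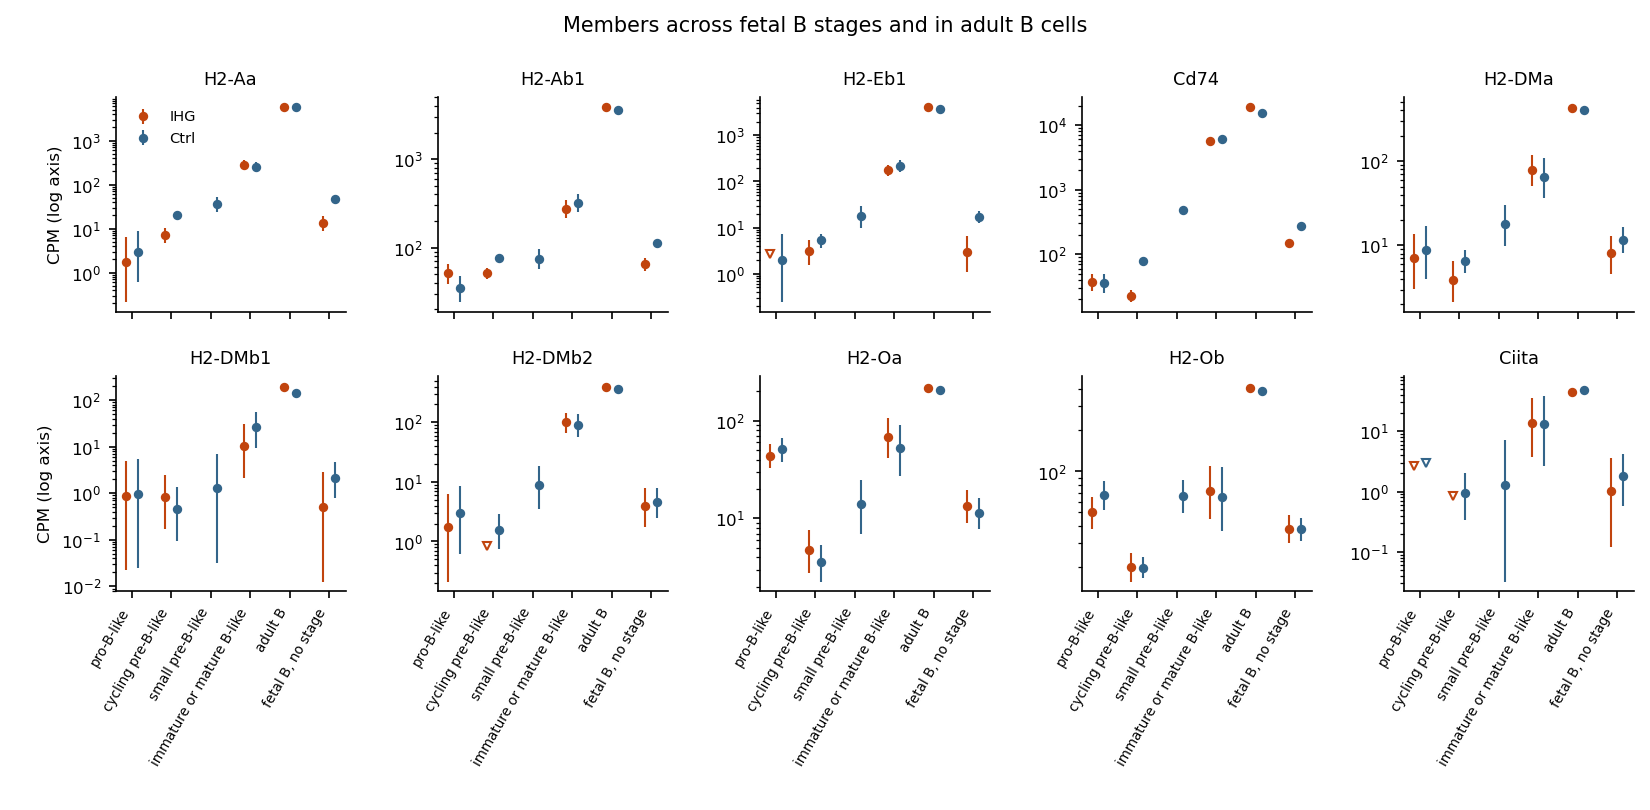
Level of each member (CPM, log axis, 1 panel per gene) in fetal B stages, in adult B lineage-like cells and in fetal B cells with no stage, with IHG left of Ctrl in each pair. Points are the library's value, bars the 95% counting interval, and open triangles the level that 3 counts would give where no UMI was seen. H2-Oa and H2-Ob start high in pro-B-like cells and dip in cycling cells. Cd74 lies above H2-Aa at each stage. In IHG it is lower in cycling than in pro-B-like cells, and it peaks among fetal stages in immature or mature B-like cells.

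H2-Ab1 was found without its partner H2-Aa in early fetal cells. Of the UMIs of both genes, H2-Ab1 made up 96.7% (exact binomial interval 88.5% to 99.6%) in IHG and 92.1% (78.6% to 98.3%) in Ctrl pro-B-like cells. The share was 87.7% and 79.1% in cycling pre-B-like cells, 67.8% in small pre-B-like Ctrl cells, and 49.1% (41.2% to 57.0%) and 55.6% (46.8% to 64.2%) in immature or mature B-like cells. Adult B lineage-like cells stood at 40.4% in IHG and 38.9% in Ctrl, and adult conventional dendritic-like cells at 45.8% and 44.6%. Erythroid-like cells also leaned to H2-Ab1, with 91.8% (89.3% to 93.8%) in IHG and 84.7% (78.6% to 89.7%) in Ctrl. The intervals of pro-B-like and erythroid-like cells overlap in both libraries, and the part of free RNA in the early H2-Ab1 counts was not tested.

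The erythroid-like H2-Ab1 counts were concentrated in 1 cluster of deep cells, led by C1qtnf12, Col5a1 and Hopx, with 587 IHG and 255 Ctrl cells. There H2-Ab1 had 21.6 CPM in IHG and 12.1 CPM in Ctrl, while H2-Aa had 0.911 and 0.897 CPM. H2-Ab1 was seen in 43.4% of IHG and 21.2% of Ctrl cells, and in 2.06% and 0.787% after thinning. The median depth in this cluster was 32513 UMIs per cell.

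**Figure D3:**
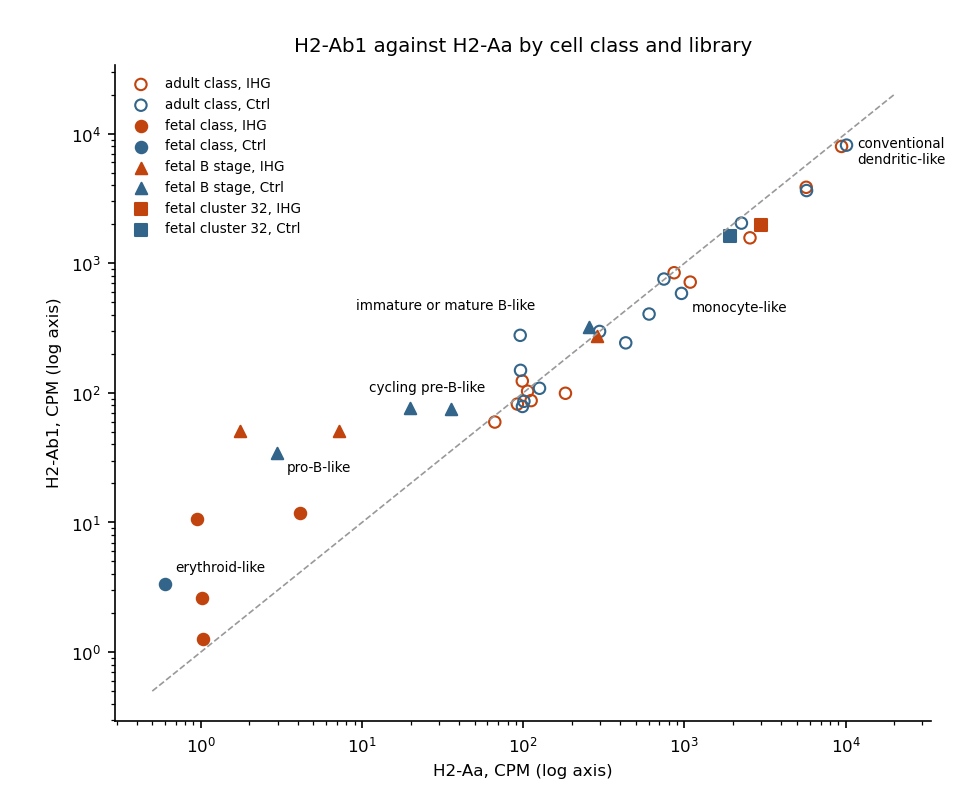
H2-Ab1 against H2-Aa (CPM, both axes log), 1 point per cell class, fetal B stage or cluster 32 and library, where both genes together had at least 20 UMIs and H2-Aa at least 1. The dashed line marks equal levels. Adult classes lie near the line, apart from Ctrl mast and basophil-like cells above it, and fetal pro-B-like, cycling pre-B-like and erythroid-like points lie above it.

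Adult B lineage-like cells exceeded the fetal immature or mature B-like stage for every member, and by unequal factors. The adult class was taken whole, and 72.1% of its IHG and 77.3% of its Ctrl cells had no stage. Among those, clusters 10 to 14 had Ms4a1 and Ighd, markers of the immature or mature stage, among their leading genes. The chains together stood at 13646 CPM in adult IHG and 736 CPM in fetal IHG cells, a factor of 18.54 (counting interval 16.2 to 21.3), and at 13075 CPM in adult Ctrl and 796 CPM in fetal Ctrl cells, a factor of 16.4 (14.2 to 19.1). Cd74 differed less, by factors of 3.30 (3.14 to 3.46) in IHG and 2.601 (2.47 to 2.75) in Ctrl. H2-DMa differed by factors of 5.37 and 6.20, H2-DMb2 by 3.91 and 4.06, H2-Ob by 5.63 and 5.93, H2-Oa by 3.12 and 3.97, and Ciita by 3.27 and 3.73, the last from 4 and 3 fetal UMIs. H2-DMb1 differed by factors of 18.3 (6.25 to 88.8) in IHG and 5.43 (2.48 to 14.9) in Ctrl, from 3 and 6 fetal UMIs. A comparison added after seeing the data took the 959 IHG and 417 Ctrl adult cells with the same stage name in place of the whole class. The factors were then 15.5 (13.6 to 17.8) and 13.5 (11.6 to 15.7) for the chains. For Cd74 they were 2.98 (2.84 to 3.13) and 2.398 (2.27 to 2.54), so both were smaller and in the same order. Stages were scored among the B clusters of each age by itself, so the shared name does not match stages between ages. Cd74 made up 58.2% of Cd74 and chain UMIs in adult IHG and 54.4% in adult Ctrl B cells, and 88.7% and 88.3% in the fetal IHG and fetal Ctrl stage.

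Fetal cluster 32 had high chain and Cd74 levels in some of its cells, which together stood below adult conventional dendritic-like cells. Its leading genes were Cst3, Ly6a, Ifi205, Ccl4 and Cd83, its best score was for conventional dendritic markers, and it stayed unnamed because none of those markers, and 1 of another class (the monocyte marker Ms4a4c), was among its 10 leading genes. Flt3, the receptor of dendritic precursors, was seen in 43.9% of IHG and 28.6% of Ctrl cells, Clec9a in 36.4% and 22.4%, and Naaa in 39.4% and 34.7%. Several other dendritic markers were near absent or seen in few cells. Xcr1, which marks mature type 1 dendritic cells, had 1 UMI over both libraries, as did Clec10a and Fscn1, Ccr7 had 2 in each library, and Zbtb46 had 5 in IHG and 2 in Ctrl. Itgax was seen in 19.7% of IHG and 4.08% of Ctrl cells and Cd209a in 13.6% and 6.12%. H2-Aa had 2980 CPM in IHG and 1912 CPM in Ctrl, H2-Ab1 1958 and 1632 CPM, H2-Eb1 1568 and 1161 CPM, and Cd74 5738 and 3717 CPM. H2-DMa had 351 and 340 CPM and H2-DMb1 294 and 180 CPM, while H2-DMb2 had 47.9 and 43.1 CPM.

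The cells of cluster 32 fell into a low and a high range of chain counts. No chain UMI was seen in 31.8% of IHG and 42.9% of Ctrl cells, and 10 or more in 41 of 66 IHG (62.1%, interval 49.3% to 73.8%) and 24 of 49 Ctrl cells (49.0%, 34.4% to 63.7%). Between those ends, 4 cells of each library had 1 to 9. The cells with 10 or more held 99.6% and 98.9% of the cluster's chain UMIs, which follows from the limit used. In them the chains had 11943 CPM in IHG and 12851 CPM in Ctrl, against 25818 and 26799 CPM in adult conventional dendritic-like cells. In the same high cells of cluster 32 Cd74 had 10308 CPM in IHG and 9686 CPM in Ctrl and H2-DMa 449 and 575 CPM. In the other 25 cells of each library Cd74 had 317 and 327 CPM and H2-DMa 234 and 206 CPM. Some marker lists outside the 10 members also differed. Conventional dendritic markers summed to 553 and 714 CPM in the high cells and 209 and 143 CPM in the others. Monocyte markers summed to 732 and 720 CPM against 1848 and 2988 CPM, and myeloid progenitor markers to 49.3 and 52.9 CPM against 548 and 653 CPM. Plasmacytoid dendritic markers were closer, with 646 and 575 CPM against 678 and 736 CPM. Neutrophil markers had 1641 and 1328 CPM against 1518 and 3179 CPM, so the libraries went different ways. Erythroid markers were higher in the high cells, with 7593 CPM in IHG and 21817 CPM in Ctrl, than in the others, with 2270 and 3757 CPM, and their part in these values was not tested. Median depth was 8616 and 6237 UMIs in the high cells and 13001 and 10883 UMIs in the others.

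**Figure D4:**
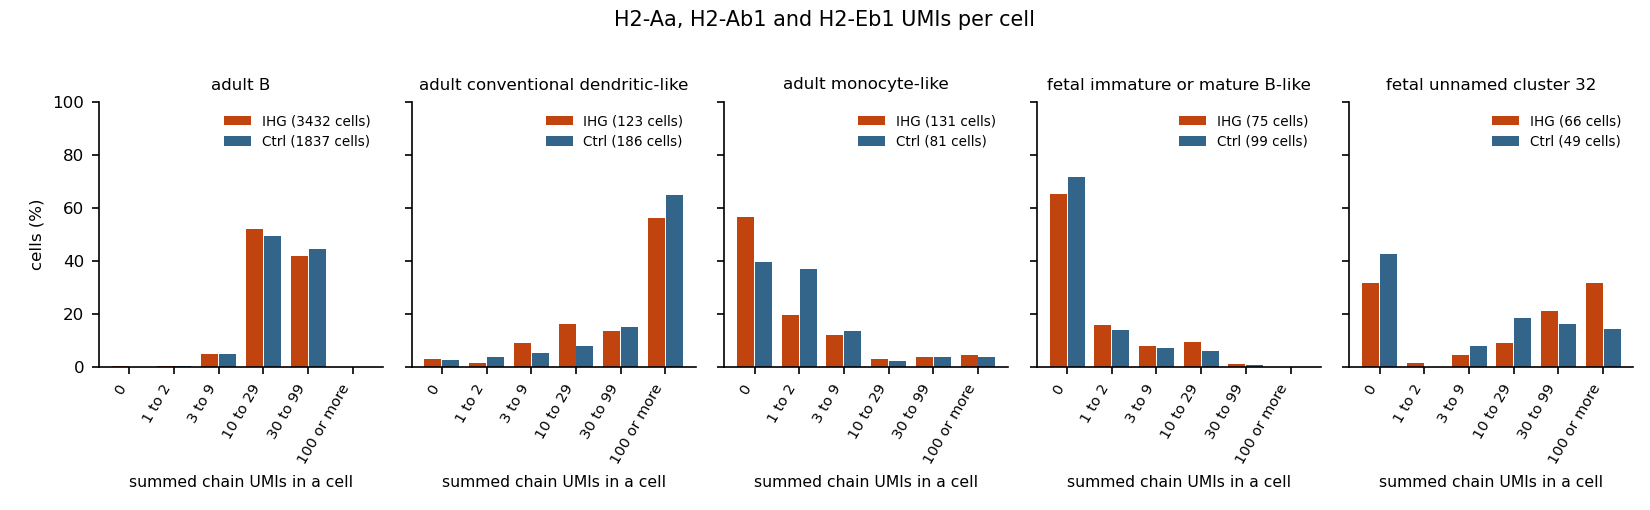
Share of cells (%) by the summed H2-Aa, H2-Ab1 and H2-Eb1 UMIs in the cell, IHG bars left of Ctrl bars, in 5 sets of cells. Adult B cells form 1 group at 10 to 99 UMIs. Fetal cluster 32 has cells at 0 and cells above 10 with few between, and fetal immature or mature B-like and adult monocyte-like cells are mostly at 0 to 2.

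Plasmacytoid dendritic-like cells had low chain levels in fetuses and high ones in adults, with few cells at either age. Chains had 5567 CPM in adult IHG (21 cells) and 79.5 CPM (11 UMIs) in fetal IHG (19 cells), and 5907 CPM in adult Ctrl (29 cells) and 163 CPM (13 UMIs) in fetal Ctrl (18 cells). Cd74 had 8062 and 340 CPM in adult and fetal IHG, and 6712 and 338 CPM in adult and fetal Ctrl. H2-DMa did not follow, with 277 and 275 CPM in adult and fetal IHG (a factor of 1.01, interval 0.579 to 1.73) and 318 and 213 CPM in adult and fetal Ctrl (a factor of 1.49, 0.838 to 2.78).

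Fetal monocyte-like cells held the editor genes with almost no chains. H2-DMa had 73.9 CPM in 285 IHG cells and 96.2 CPM in 160 Ctrl cells, and H2-DMb1 14.1 and 15.4 CPM. The chains together had 11 UMIs in IHG (3.44 CPM) and 4 in Ctrl (4.09 CPM), below the erythroid-like levels of 12.3 and 4.28 CPM, and Ciita and H2-Ob had 0. Other early myeloid cells showed the same order: H2-DMa had 36.5 CPM in IHG and 18.7 CPM in Ctrl myeloid progenitor-like cells, where the chains had 4.198 and 2.55 CPM. Stem and progenitor-like cells (171 IHG and 24 Ctrl) had H2-DMa at 62.0 and 98.7 CPM, Cd74 at 52.8 and 102 CPM, and chains at 16.9 and 22.8 CPM. H2-Oa was also found in mast and basophil-like cells, with 37.6 CPM (18 UMIs) in 31 IHG and 52.2 CPM (15 UMIs) in 35 Ctrl cells, beside 43.9 and 51.2 CPM in pro-B-like and 68.8 and 52.2 CPM in immature or mature B-like cells.

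Adult B lineage-like cells expressed all 10 members, in nearly every cell for the chains and Cd74. H2-Aa had 5696 CPM in IHG and 5726 CPM in Ctrl, H2-Ab1 3855 and 3638 CPM, H2-Eb1 4094 and 3710 CPM, and Cd74 19028 and 15590 CPM. Both Cd74 and a chain were seen in 99.5% of 3432 IHG and 99.8% of 1837 Ctrl cells at median depths of 2007 and 2216 UMIs. A median cell had 27 chain UMIs in both libraries, and 37 Cd74 UMIs in IHG and 32 in Ctrl. H2-Ob (407 and 387 CPM) exceeded H2-Oa (215 and 207 CPM), and Ciita was low with 44.98 and 48.6 CPM.

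Adult conventional dendritic-like cells (123 IHG and 186 Ctrl) had the highest chain levels of any named class with at least 20 cells in a library, 25818 CPM in IHG and 26799 CPM in Ctrl. H2-Aa had 9440 and 10134 CPM, H2-Ab1 7965 and 8152 CPM, H2-Eb1 8412 and 8513 CPM, and Cd74 26051 and 23510 CPM. H2-DMa had 729 and 822 CPM and H2-DMb1 559 and 519 CPM. These cells held less H2-O than adult B cells, with H2-Ob at 51.1 and 79.6 CPM and H2-Oa at 138 and 165 CPM.

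Adult monocyte-like cells stood between, and a minority of their cells carried the chains. Chains had 2588 CPM in 131 IHG cells and 2150 CPM in 81 Ctrl cells, and Cd74 2838 and 2841 CPM. No chain UMI was seen in 56.5% of IHG and 39.5% of Ctrl cells. The 15 IHG (11.5%) and 8 Ctrl (9.88%) cells with 10 or more held 92.3% and 88.7% of the chain UMIs, and without them the level was 228 and 275 CPM. H2-DMa was spread more evenly, with 215 and 243 CPM and a UMI in 51.9% of cells of both libraries. H2-Ob had 1 UMI in IHG and 0 in Ctrl, which allows up to 8.57 CPM in Ctrl.

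The remaining adult classes had chain levels of 134 to 2469 CPM, and part of these came from single cells with many UMIs. Plasma-like cells had 2469 CPM in IHG and 2244 CPM in Ctrl. T-like cells had 183 and 259 CPM, NK and ILC1-like cells 253 and 320 CPM, and neutrophil-like cells 465 and 860 CPM. Cells with 10 or more chain UMIs were 15 of 1576 IHG and 26 of 1456 Ctrl T-like cells, and without them the level was 120 and 140 CPM. In neutrophil-like cells, taken as a rough gauge of free RNA in adults, 1 IHG and 9 Ctrl cells were that high, and without them the level was 294 and 303 CPM. Whether such cells are doublets was not tested beyond the doublet scores used.

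The paired genes of H2-M and H2-O were used in different proportions by different cells. H2-DMb1 and H2-DMb2 are near-identical copies, so reads may be split between them with error, and their shares depend on the counting. H2-DMb2 made up 67.4% (exact binomial interval 65.9% to 68.8%) of the UMIs of both in adult IHG and 72.4% (70.4% to 74.3%) in adult Ctrl B cells, but 24.5% (20.8% to 28.6%) and 22.0% (19.1% to 25.2%) in adult conventional dendritic-like cells. In adult monocyte-like cells H2-DMb2 had 3 of 75 UMIs (4.00%) in IHG and 0 of 32 in Ctrl. Fetal B lineage-like cells leaned to H2-DMb2 as adult B cells did, with 83.0% and 76.1%. Likewise H2-Ob made up 65.4% and 65.1% of H2-O UMIs in adult B cells and 27.0% and 32.6% in adult conventional dendritic-like cells. Fetal pro-B-like cells stood at 53.3% and 56.7% and cycling pre-B-like cells at 80.9% and 84.7%.

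The IHG and Ctrl libraries were compared class by class. In fetal B lineage-like cells (999 IHG and 2234 Ctrl) the chains were lower in IHG, while the pooled Cd74 level and the levels within clusters went different ways. H2-Aa had 19.6 CPM in IHG and 31.0 CPM in Ctrl (log2 ratio -0.66, counting interval -0.96 to -0.38), H2-Ab1 64.1 and 85.9 CPM (-0.42, -0.59 to -0.26), and H2-Eb1 9.64 and 13.1 CPM (-0.44, -0.88 to -0.02). Summed, the chains had 93.3 CPM in IHG and 130 CPM in Ctrl (-0.48, -0.61 to -0.34). Pooled Cd74 had 298 and 272 CPM (0.13, 0.05 to 0.21), and with the same cluster weights in both libraries, an alternative added after seeing the data, its log2 ratio turned to -0.49. H2-Oa had 16.2 and 11.5 CPM (0.49, 0.11 to 0.86). The intervals of H2-DMa, H2-DMb1, H2-DMb2, H2-Ob and Ciita included 0. None of the 10 members passed a factor of 2, against 6.68% of 11086 genes with at least 20 UMIs, and 3 of 10 were higher in IHG. Their median log2 ratio was -0.28, and that of all genes 0.11.

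The mix of fetal B stages differed between the libraries alongside these values. The pro-B-like stage held 30.1% of the B lineage in IHG and 16.5% in Ctrl, cycling pre-B-like cells 24.5% and 32.5%, small pre-B-like cells 0.4004% and 15.5%, and immature or mature B-like cells 7.51% and 4.43%. With the same cluster weights in both libraries the log2 ratio of the chains was -0.55, and without clusters that came over 90% from 1 library -0.43. Of the 9 B clusters with at least 20 cells in each library, the chains were higher in IHG in 1 and lower in 8, and 4 of the 8 had intervals below 0. The cluster with the higher value was the pro-B-like one, with 52.7 CPM of chains in IHG and 39.4 CPM in Ctrl (0.42, -0.18 to 1.03). The widest gaps were in clusters with no stage, number 23 with 68.0 CPM in 21 IHG cells and 243 CPM in 84 Ctrl cells (-1.84, -2.72 to -1.06) and number 14 with 97.4 and 259 CPM (-1.41, -1.86 to -0.97). In the immature or mature cluster the log2 ratio was -0.11 (-0.40 to 0.18) and 0 of 8 members passed a factor of 2, against 11% of genes.

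Cd74 was higher in IHG in 2 of the same 9 clusters and lower in 7, and 6 of the 7 had intervals below 0. In cluster 14 it had 402 CPM in IHG and 860 CPM in Ctrl (-1.10, -1.32 to -0.88). In cluster 18, of the cycling stage, it had 34.8 and 94.5 CPM (-1.44, -2.03 to -0.89). The pro-B-like cluster (0.06, -0.62 to 0.74) and cluster 21 (0.28, -0.89 to 1.55) were the ones above 0, and the immature or mature cluster stood at -0.05 (-0.16 to 0.05). That last cluster has the highest Cd74 level and was a larger share of the IHG than of the Ctrl B lineage. The mix of clusters, the library and the pool cannot be told apart. Markers of other cells moved too: summed erythroid markers had 3446 CPM in IHG and 5947 CPM in Ctrl B lineage-like cells, hepatocyte markers 221 and 79.0 CPM, and macrophage markers 36.3 and 1.68 CPM, while B lineage markers had 9005 and 9133 CPM. Their part in the result was not tested.

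In fetal cluster 32 all 8 members with at least 20 UMIs were higher in IHG, and 0 passed a factor of 2, against 11.4% of genes. The log2 ratio was 0.64 (0.52 to 0.76) for H2-Aa, 0.26 (0.13 to 0.40) for H2-Ab1, 0.63 (0.54 to 0.71) for Cd74 and 0.05 (-0.26 to 0.35) for H2-DMa. For the chains it was 0.47 (0.39 to 0.54). The share of cells with 10 or more chain UMIs moved with it (62.1% in IHG and 49.0% in Ctrl, overlapping intervals), while within those cells the chains had 11943 and 12851 CPM.

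Cd74 was lower in fetal IHG monocyte-like cells, with 19.1 CPM (61 UMIs) in IHG and 76.8 CPM (75 UMIs) in Ctrl (log2 ratio -2.01, -2.52 to -1.50). It was the 1 member of 4 measured there past a factor of 2, against 9.47% of genes. A Cd74 UMI was in 15.4% of IHG and 27.5% of Ctrl cells at medians of 10079 and 5857 UMIs, and in 2.46% and 9.15% after thinning. The class was made of clusters in unequal mix: cluster 26, of 138 IHG and 124 Ctrl cells, had 29.4 and 81.4 CPM of Cd74 (-1.47, -2.16 to -0.80), and cluster 29, of 147 IHG and 36 Ctrl cells, had 14.25 and 66.9 CPM (-2.23, -3.08 to -1.36). The size depended on which cells were called monocyte-like. The log2 ratio was -1.39 with a mitochondrial maximum of 10% and -1.11 with doublets kept, and it no longer passed a factor of 2 at Leiden resolution 0.5 (-0.93), at resolution 2 (-0.51) or with each library clustered by itself (-0.19). Of 8 class I genes measured there 1 was higher in IHG and 2 were lower past a factor of 2, B2m, the class I light chain (335 CPM in IHG and 768 CPM in Ctrl), and H2-K1 (103 and 260 CPM), and the median log2 ratio of the 8 was -0.59.

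In erythroid-like cells H2-Ab1 (10.6 CPM in IHG and 3.33 CPM in Ctrl, log2 ratio 1.67) and H2-DMa (1.96 and 0.732 CPM, 1.42) passed a factor of 2, but so did 32% of all genes there, whose median log2 ratio was 0.70.

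In adult B lineage-like cells the members were close in the libraries. Of 10 members 8 were higher in IHG and 0 passed a factor of 2, against 2.17% of 9597 genes, and the median log2 ratio of all genes was -0.09. The log2 ratio was -0.01 (-0.03 to 0.02) for H2-Aa, 0.08 (0.05 to 0.11) for H2-Ab1, 0.14 (0.11 to 0.17) for H2-Eb1 and 0.06 (0.05 to 0.08) for the chains together. Cd74 (0.29, 0.27 to 0.30) and H2-DMb1 (0.41, 0.27 to 0.56) stood highest. H2-DMa, H2-DMb2, H2-Oa, H2-Ob and Ciita had intervals that included 0. The mix of adult B clusters also differed, with cluster 11 at 10.9% of the class in IHG and 23.4% in Ctrl and cluster 12 at 16.4% and 8.17%. Across the 9 clusters with at least 20 cells in each library the log2 ratio lay between 0.04 and 0.12 for the chains and between 0.22 and 0.31 for Cd74, and with the same cluster weights it was 0.06 for the chains.

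In adult conventional dendritic-like cells 0 of 10 members passed a factor of 2, against 5.19% of genes. The chains had a log2 ratio of -0.05 (-0.08 to -0.03), Cd74 0.15 (0.12 to 0.18) and H2-Ob -0.64 (-1.25 to -0.05). In adult monocyte-like cells the chains had 0.27 (0.14 to 0.39) and Cd74 -0.0013, and 0 of 6 members passed, against 5.77% of genes. The chain value rests on the 15 IHG and 8 Ctrl cells with 10 or more chain UMIs: without them the level was lower in IHG, at 228 CPM, than in Ctrl, at 275 CPM. Both levels lie below those of neutrophil-like cells without such cells (294 and 303 CPM), the rough gauge of free RNA. The part of free RNA in them was not tested. With macrophage-like cells added (3 IHG and 10 Ctrl cells) the chains had 2799 CPM in IHG and 4647 CPM in Ctrl (-0.73, -0.83 to -0.64), so the direction differed with and without those few cells. In stellate/fibroblast-like cells H2-Aa, H2-Ab1, H2-Eb1 and Cd74 were all below Ctrl by over a factor of 2, where 16.5% of genes passed. There 3 IHG and 4 Ctrl cells held 80.4% and 82.8% of the chain UMIs. Over all named classes 13 of 114 pairs of member and class (11.4%) passed a factor of 2, and over all genes 11.4% of pairs did, so the members' share there is that of the background. Unnamed cells are left out of that count. In the fetal ones pooled, 9 of 10 members were higher in IHG past a factor of 2, against 24.3% of genes. The members' median log2 ratio was 1.57, and that of all genes 0.53. That pool mixes clusters in unequal shares. In its cluster 33 (51 IHG and 48 Ctrl cells), led by C1qa, C1qc and C1qb, 4 of 5 were higher past it, against 19.3% of genes.

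**Figure D5:**
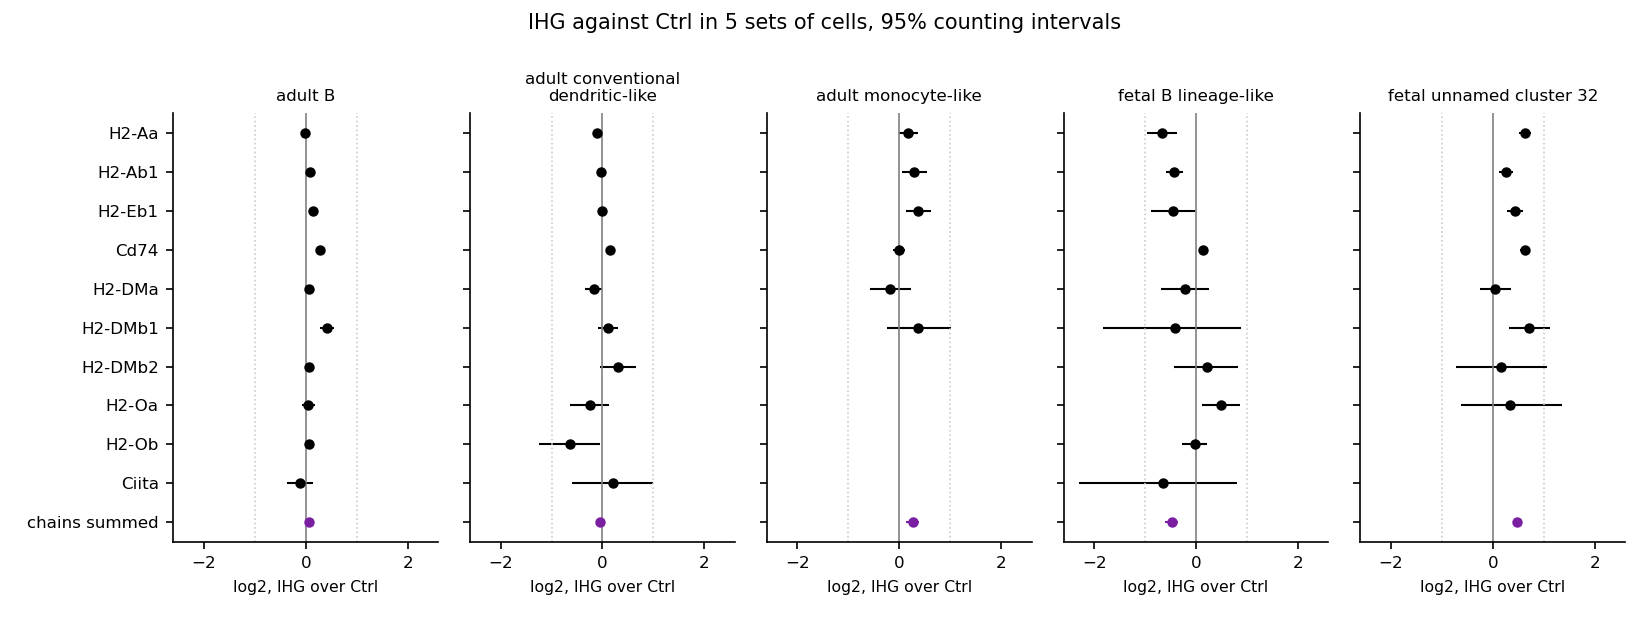
Log2 ratio of IHG over Ctrl for each member and for the 3 chains summed (rows) in 5 sets of cells, with 95% counting intervals, where a gene had at least 20 UMIs. Dotted lines mark a factor of 2. Adult values lie near 0, fetal B lineage-like chains lie below 0 and fetal cluster 32 above it, and no point crosses a dotted line.

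Other genes of the pathway were counted in the same cells. In fetal B lineage-like cells 2 of 7 RFX, NF-Y and CREB genes were higher in IHG and 0 passed a factor of 2, which 6.68% of all genes did in these cells. The lysosomal processing list had 5 of 7 higher and 0 past it, with Cst3, a cathepsin inhibitor, at 492 CPM in IHG and 420 CPM in Ctrl. Of 10 genes upstream of Ciita 3 were higher and 0 passed, and Irf4, a B cell transcription factor, had 83.6 and 154 CPM. Cd83, which protects surface class II from ubiquitin-driven turnover, was lower by over a factor of 2 (4.96 and 10.5 CPM). Of the 3 measured surface turnover genes 1 was higher in IHG (median log2 ratio -0.53). Cd40 was also lower past a factor of 2 (2.13 and 4.78 CPM), but 2 of the 3 measured co-stimulatory genes were higher in IHG (median 0.84). H2-Eb2, a further class II beta gene, was higher past a factor of 2, from 17 and 12 UMIs. Of 9 class I genes 1 was higher and 1, Nlrc5, was lower past a factor of 2. Their median log2 ratio was -0.64, with H2-D1 at 264 and 444 CPM, H2-K1 at 147 and 250 CPM and B2m at 326 and 491 CPM.

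In adult B lineage-like cells no pathway gene passed a factor of 2, and 2.17% of all genes did. Of the lists 2 of 7 promoter factor genes, 3 of 7 lysosomal, 2 of 10 upstream, 2 of 2 surface turnover and 3 of 6 co-stimulatory genes were higher in IHG, as were 5 of 9 class I genes. Cd83 had 865 CPM in IHG and 796 CPM in Ctrl, B2m 1327 and 1443 CPM, and H2-Eb2 58.2 and 53.2 CPM. Rfxap, a subunit of RFX, had 26.6 and 28.6 CPM in adult and 51.7 and 39.1 CPM in fetal B lineage-like cells. In adult conventional dendritic-like cells 8 of 9 class I genes lay above Ctrl (median log2 ratio 0.09), where 5.19% of all genes passed a factor of 2.

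Genes with a pattern like that of the chains were ranked by Pearson correlation of log2(CPM + 10) over 33 pairs of library and class among 11558 genes. The pairs share libraries and cell types, so the values only describe. Cd74 (0.975) and Ciita (0.875) were the closest members outside the chains, followed by H2-DMb1 (0.851), H2-DMb2 (0.824), H2-Oa (0.823), H2-DMa (0.779) and H2-Ob (0.736). The 8 closest other genes were Etv3 (0.848), Cd40 (0.830), Ccr7 (0.830), Icosl (0.826), Dyrk1a (0.825), Rel (0.817), Slc36a3os (0.817) and Bbc3 (0.813). Ccr7, a chemokine receptor, had 1150 and 1106 CPM in adult IHG and Ctrl B cells and 81.1 and 96.6 CPM in fetal IHG and Ctrl B cells. Etv3 had 404 and 469 CPM in adult IHG and Ctrl conventional dendritic-like cells and 44.8 and 58.5 CPM in adult IHG and Ctrl B cells.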

How the data were processed

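The deposited files are matrices of raw UMI counts, genes by barcodes. Their headers name Cell Ranger 5.0.0 (per the file headers), and the submitters' processing notes list mm10 as build and Seurat among the tools. Barcodes under 300 genes or over 25% mitochondrial UMIs were dropped. Doublets were removed per library with Scrublet (scanpy 1.11.5) at its own threshold in fetal libraries (267 IHG, 107 Ctrl) and above the 95th percentile in adult ones (286 IHG, 244 Ctrl), where the caller marked under 0.5%. Clustering used 2000 variable genes without the members, 30 components, 15 neighbours and Leiden resolution 1 (leidenalg 0.10.2). B cells were clustered again. UMIs were summed per library and class. Ratios carry exact conditional Poisson intervals and shares exact Clopper-Pearson intervals, both 95% and covering counting error only. Cells under 1000 UMIs (417 fetal IHG, 253 fetal Ctrl, 299 adult IHG, 238 adult Ctrl) were left out of thinned shares. A gene was counted as past 2-fold with at least 20 UMIs over both libraries and 0.5 added to each count. A count of 0 allows 3 counts. Python 3.11.15, scipy 1.17.1 and matplotlib 3.10.9 were also used, and the ratio step was tested on simulated data.

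Members, marker lists and pathway lists were chosen with earlier results of these data known. The text may name all 10 members, up to 3 genes of each pathway list with the most UMIs in B, dendritic and monocyte/macrophage cells, and the 8 genes most alike. Rfxap, Irf4, Cd40 and the listed class I genes fall under that rule, and Nlrc5 was named after its value was seen. Alternatives covered scaling, thinning, filters, doublets, clustering and free RNA, the last gauged roughly by erythroid-like (fetal) and neutrophil-like (adult) cells.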

Additional observations from a re-analysis of the deposited data

Results flagged for a closer look

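In B lineage-like cells the IHG to Ctrl ratios of the adult and the fetal libraries lay on opposite sides of 0 for 2 single genes and for the chains summed, with counting intervals that left out 0 at both ages. The log2 ratio of H2-Ab1 was 0.08 in adults and -0.42 in fetuses, that of H2-Eb1 was 0.14 and -0.44, and that of the chains summed was 0.06 and -0.48. With 1 library per group the difference was not tested. Median depth was 2007 and 2216 UMIs in adult IHG and Ctrl B cells, and 3952 and 3237 UMIs in fetal IHG and Ctrl B cells. Pro-B-like and pre-B-like clusters were found in the fetal class and not in the adult one, most of whose cells had no stage. In the fetal immature or mature B-like stage, H2-Ab1 had a log2 ratio of -0.23 (-0.70 to 0.25) and H2-Eb1 -0.31 (-0.90 to 0.28).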

How the results depend on the processing

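No paired analysis was possible because each group has 1 library and the labels give no shared replicate numbers. For the same reason no library could be left out. The ratios here are log2 ratios of IHG over Ctrl, for the 3 chains summed unless Cd74 is named. Fetal B lineage-like cells (-0.48) ranged from -0.63 to 0.13, and the upper end is Cd74 in place of the chains. They stood at -0.28 after thinning and at -0.63 with the free RNA level subtracted, and Cd74 taken alone gave 0.13. Fetal dendritic-like cells (-1.03, from 11 and 13 UMIs) turned to 0.18 at Leiden resolution 0.5, 3.79 with each library clustered by itself, 0.24 with at least 500 genes a cell, 0.0072 for Cd74 alone and 0.46 with cluster 32 added. That cluster was named in some of these groupings, so the cells counted differ. Fetal monocyte-like cells (-0.25, from 11 and 4 UMIs) stood at 2.68 with a mitochondrial maximum of 10%, 2.55 with doublets kept and -2.01 for Cd74 alone, and other clusterings gave up to 1.42. Adult B cells (0.06) stood at 0.15 under median-of-ratios scaling, 0.035 without haemoglobin, mitochondrial and ribosomal genes, 0.11 with free RNA subtracted and 0.29 for Cd74. Adult dendritic-like cells (-0.06) stood at -0.13 without haemoglobin, mitochondrial and ribosomal genes, -0.12 thinned, -0.027 at 10% mitochondrial, 0.012 with doublets kept, -0.090 at resolution 2, -0.14 clustered by itself, 0.15 for Cd74 and 0.011 with the same cluster weights. Adult monocyte/macrophage-like cells (-0.73) stood at -0.89 thinned, -0.24 at 10% mitochondrial, -1.63 with doublets kept, -0.89 and -1.08 at resolutions 0.5 and 2, -1.11 with at least 500 genes and 0.27 for monocyte clusters alone. The count of member and class pairs past a factor of 2 was 13 of 114 with at least 20 UMIs and 52 of 202 with at least 1. Except where a line above names a construction, the cause was not tested. Same cluster weights, leaving out 1-library clusters, monocyte clusters alone and adding cluster 32 were chosen after seeing the data. Depth limits Ciita, the H2-O genes in myeloid cells and all fetal dendritic and monocyte chain values, which rest on few UMIs.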
